A study of Mus musculus with 42 samples.

Results

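The 10 genes described here carry signals of metabolic state and appetite. They are Insr, Igf1r, Irs2, Lepr, Adipor1, Adipor2, Cnr1, Npy, Npy1r and Kcna3, and they were listed by symbol. All 10 were present once each among the 44674 genes of the count table. In the study, mice smelled a food for 1 h and the main olfactory epithelium, the sheet of tissue in the nose that holds the olfactory sensory neurons, was then taken for RNA sequencing. Each pool of epithelia gave 2 libraries. The input library held RNA of the whole tissue, and the pulldown library held RNA of ribosomes caught with an antibody to phosphorylated S6, a ribosomal protein that is phosphorylated in recently active cells.

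All groups were adult male C57BL/6NCrl mice, and 4 epithelia made 1 pool. The No Odour group had 5 pools (numbered 1, 2, 3, 4 and 6) and met no food. The NCD group had 6 pools and smelled normal chow. The Bacon group had 5 pools and smelled a bacon-flavoured chow. The HFD group had 5 pools (numbered 1, 2, 3, 5 and 6) and smelled a lard-based high-fat diet. Animals were pooled, so the errors below are the spread between 21 pools and not between animals. In such bulk tissue, fewer cells of a type and less RNA per cell cannot be told apart.

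Insulin and insulin-like growth factor 1 act through receptor tyrosine kinases, which pass the signal to adaptor proteins such as IRS2. Leptin and adiponectin are hormones made by fat, and their receptors report energy stores. Endocannabinoids and neuropeptide Y both promote feeding, act through G protein-coupled receptors and are known to modulate the olfactory epithelium. Kv1.3, the channel encoded by Kcna3, is known in the olfactory bulb as a potassium channel that insulin signalling phosphorylates.

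All 10 are protein-coding genes with their positions on GRCm38. Npy (ENSMUSG00000029819) lies at chr6:49822710-49829507 on the plus strand with 566 bases of exon, and Irs2 (ENSMUSG00000038894) at chr8:10984681-11008458 on the minus strand with 6323. Insr (ENSMUSG00000005534) lies at chr8:3122061-3279617, Igf1r (ENSMUSG00000005533) at chr7:67952827-68233668 and Adipor1 (ENSMUSG00000026457) at chr1:134415378-134433351.

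The sequences upstream of Irs2 and Npy are shown because these members had the smallest adjusted p for any odour, Npy for the ratio and Irs2 for input, a choice made after their values were seen. Each is the 250 bases before the RefSeq start on GRCm38.p6, printed on the gene's strand, and promoters of 9 members were found in the RefSeq table, with none for Insr.
Irs2, chr8:11008930-11009179, minus strand: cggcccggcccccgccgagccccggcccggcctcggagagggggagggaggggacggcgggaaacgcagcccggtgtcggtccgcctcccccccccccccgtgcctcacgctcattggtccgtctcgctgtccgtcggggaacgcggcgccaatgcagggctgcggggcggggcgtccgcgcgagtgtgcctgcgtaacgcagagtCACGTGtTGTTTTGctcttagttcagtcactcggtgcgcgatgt
Npy, chr6:49822460-49822709, plus strand: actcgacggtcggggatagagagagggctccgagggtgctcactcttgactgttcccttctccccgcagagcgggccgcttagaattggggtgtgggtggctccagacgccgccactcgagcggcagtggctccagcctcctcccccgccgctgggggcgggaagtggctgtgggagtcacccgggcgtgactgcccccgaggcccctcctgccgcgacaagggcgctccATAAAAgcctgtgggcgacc
Capitals mark the motifs found on either strand. In Irs2 these are the E-box CACGTG, which 6.02% of the 32851 promoters of this length hold, and TGTTTTG, the core of an insulin response element, which 5.56% hold. In Npy the capitals mark ATAAAA, which resembles a TATA box, lies 20 bases before the start and is held by 17% of promoters. Neither TGACG, the core of a cyclic AMP response element, nor TATAAA, the TATA box, was found in either window. A match is a description of these letters and not a measured site.

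Levels are given as CPM, the counts of a gene scaled to a library of 1000000 counts, after adjustment of library size by the trimmed mean of M values (TMM). Library totals ranged from 24839380 to 36781440 counts. Input No Odour 4 and pulldown Bacon 1 stood apart from their own groups, with mean correlations across genes of 0.974 and 0.971, the lowest of 42 libraries. In input No Odour 4, long transcripts were low against the other No Odour inputs (median log2 difference -0.33 for exon lengths over 8 kb, 0.20 for those under 1 kb). Genes of ribosomal RNA type took 28.1% ± 4.21 (SD, n = 5) of No Odour input counts and 14.5% ± 3.47 (n = 16) of odour input counts, and 23.9% ± 5.97 and 14.2% ± 3.06 of pulldown counts. With those genes left out the changes with any odour reported below were close to the same, 1.28 for the Npy ratio, 0.42 for Irs2 input and 0.32 for Insr input, of which the last no longer passed (adjusted p = 0.001077). Leaving the genes out removes only their counts and does not test how else the libraries differ. Their share was higher without odour in both library types, so odour and such a difference between libraries cannot be told apart. Calls that change without No Odour 4 or Bacon 1 are given with and without them, and the labels name no batch or date. Omp, which marks mature sensory neurons, averaged 7067 CPM in No Odour inputs and 5165 CPM in Bacon inputs. The summed 8 mature sensory neuron markers, Omp among them, averaged 16111 and 15825 CPM in the same inputs.

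Adipor1, the broadly expressed receptor of adiponectin, had the highest level of the 10. Compared per kilobase of exon, mean input levels over 21 pools were 64.4 CPM per kb for Adipor1, 6.94 for Adipor2, 6.60 for Insr, 5.81 for Irs2 and 2.73 for Cnr1. They were 2.58 for Npy, 2.34 for Igf1r, 1.88 for Npy1r, 0.557 for Lepr and 0.334 for Kcna3. Only 2 neighbouring pairs in this order had ranges that did not overlap. Adipor1 lay 9.28-fold above Adipor2, and Npy1r lay 3.37-fold above Lepr. Adipor1 stood at the 97.3 percentile of the 16798 protein-coding genes tested. In the pulldown the per-kb level of Igf1r was 4.15 and that of Cnr1 and Npy 2.54 each. The ranges of Adipor2, Insr and Irs2 overlapped in input. Within pools Insr lay above Irs2 in 19 of 21, while Adipor2 lay above Insr in 9 of 21, so the order of Adipor2 and Insr is not separated by these pools.

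**Figure D1:**
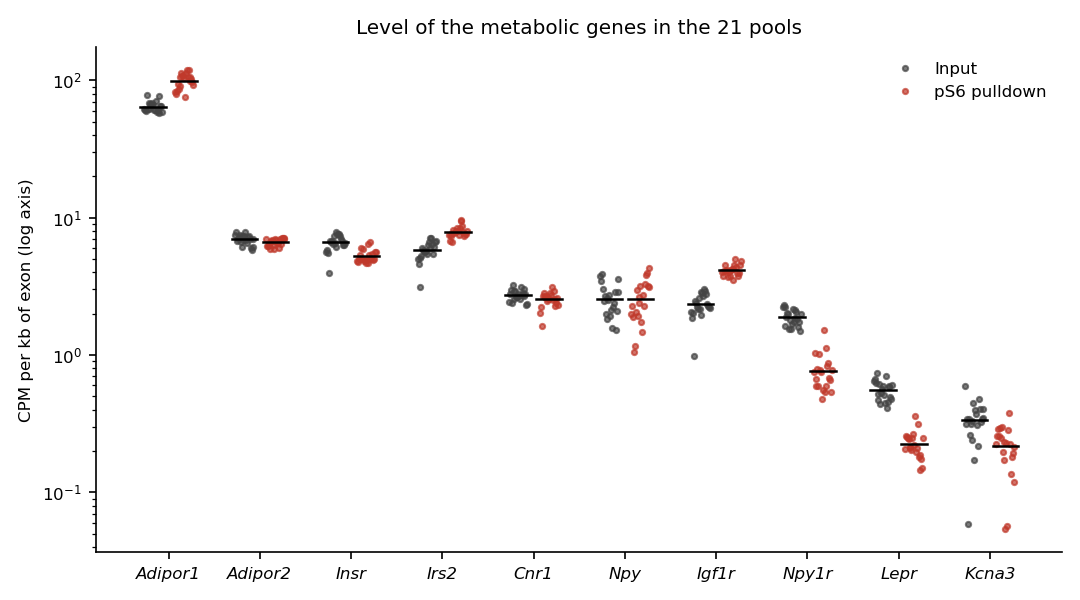
Level of each of the 10 genes in CPM per kb of exon (log axis), with 1 point per library for the 21 inputs (grey) and 21 pulldowns (red) and a line at the mean. Adipor1 lies apart at the top (input mean 64.4), and Lepr and Kcna3 lie at the bottom (0.557 and 0.334).

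The first comparison asks which of these transcripts are on phosphorylated ribosomes more or less than their share of the tissue RNA, in mice that smelled no food. In the No Odour pools Igf1r, Irs2 and Adipor1 were higher in the pulldown than in input. Lepr, Npy1r and Npy were lower. Thus 6 of 10 members passed the threshold, an adjusted p below 0.001 (edgeR quasi-likelihood test with the pool as a term, Benjamini-Hochberg adjustment over 21168 genes), where 35.8% of all genes tested did. The members' median log2 ratio was -0.19, against 0.01 over all genes. In a fit of the compared group only, Igf1r (adjusted p = 0.001049), Adipor1 (0.001852) and Npy (0.001669) did not pass.

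Igf1r, the receptor of insulin-like growth factor 1, measured 67.6, 63.5, 69.1, 76.3 and 68.5 CPM in the 5 No Odour pulldowns and 34.5, 31.4, 33.8, 16.6 and 41.2 CPM in the matched inputs. Every pulldown lay above every input, and the fitted ratio was 1.17 on the log2 scale (SE 0.14, adjusted p = 3.389e-07), a 2.26-fold excess. The lowest input value was that of pool 4. Without that pool the log2 ratio was 0.93 (adjusted p = 6.613e-09).

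Irs2, the adaptor that links both receptors to phosphoinositide 3-kinase, measured 47.0, 42.7, 48.2, 46.1 and 42.4 CPM in No Odour pulldowns. Its inputs were 31.6, 29.3, 32.1, 19.7 and 33.4 CPM, so the groups of libraries did not overlap, and the log2 ratio was 0.65 (SE 0.08, adjusted p = 2.009e-07). Insr, the insulin receptor, measured 66.2, 65.2, 68.7, 73.9 and 82.2 CPM in pulldown and 77.3, 79.4, 76.2, 54.2 and 92.6 CPM in input. These ranges overlapped, and the log2 ratio was -0.08 (95% interval -0.25 to 0.09, adjusted p = 0.4272).

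Lepr, the leptin receptor, was among the least abundant members and was depleted from the pulldown. It measured 1.46, 1.82, 1.77, 1.76 and 1.71 CPM in No Odour pulldowns against 4.57, 4.69, 4.38, 5.25 and 3.66 CPM in inputs, with no overlap (log2 ratio -1.39, SE 0.16, adjusted p = 4.33e-08). Adipor1 measured 412, 398, 420, 470 and 434 CPM in pulldown against 309, 303, 301, 395 and 311 CPM in input. Only pool 4 gave an Adipor1 input near the pulldown values, and the log2 ratio was 0.40 (SE 0.08, adjusted p = 6.554e-05). Adipor2, the second adiponectin receptor, had a log2 ratio of -0.20 (adjusted p = 0.01239) and did not pass the threshold.

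Cnr1, the CB1 cannabinoid receptor, measured 13.1, 14.5, 10.4, 17.3 and 18.2 CPM in No Odour pulldowns and 15.6, 17.9, 19.2, 15.4 and 20.7 CPM in inputs. These ranges overlapped, and the log2 ratio of -0.28 did not pass (adjusted p = 0.01175), but without pool 4 it was -0.41 and did (adjusted p = 0.0006199). Npy1r, the Y1 receptor of neuropeptide Y, measured 2.58, 3.54, 2.32, 2.06 and 2.71 CPM in pulldown and 7.68, 7.95, 5.58, 7.68 and 6.50 CPM in input. The Npy1r libraries did not overlap, and the log2 ratio was -1.42 (SE 0.15, adjusted p = 1.545e-08). Npy, which encodes the neuropeptide, had a log2 ratio of -1.02 (SE 0.21, adjusted p = 0.0002156). That Npy call was kept in 18 of 21 fits that left out 1 pool and was lost without No Odour 3 (-1.03, adjusted p = 0.001078), 4 (-0.92, 0.001727) or 6 (-0.998, 0.001094). Kcna3 rested on as few as 3 counts in a library, and its log2 ratio was -0.18 with a 95% interval from -0.99 to 0.63 (adjusted p = 0.7147).

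Markers of other cells moved in the same comparison. All 5 supporting-cell markers, all 5 fibroblast markers, 3 of 4 horizontal basal cell markers and 4 of 6 ensheathing and glial cell markers were lower in the pulldown, as Lepr, Npy1r and Npy were. All 5 macrophage markers and all 5 erythroid markers were higher. The summed horizontal basal markers ranged from 10.7 to 22.6 CPM in No Odour pulldowns and from 65.6 to 71.6 CPM in inputs, and the summed macrophage markers from 103 to 149 CPM and from 48.4 to 68.2 CPM. None of these basal, glial or macrophage markers was at 0 in all libraries of a group. The part of these cells in the members' ratios was not tested.

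The ratios of Igf1r, Lepr, Adipor1 and Npy1r passed in each of the other groups too, though for Igf1r and Lepr not in every alternative fit in Bacon. In NCD pools 46.0% of all genes passed and so did 6 members, Igf1r (log2 ratio 0.83), Irs2 (0.49) and Adipor1 (0.66) higher and Insr (-0.40), Lepr (-1.23) and Npy1r (-1.37) lower. In Bacon pools, where 41.3% of genes passed, these 6 members passed in the same directions, with Adipor1 at 0.76 and Lepr at -1.01. Igf1r in Bacon, at 0.59 (adjusted p = 0.0007309), was kept in 13 of 21 fits that left out 1 pool, with adjusted p up to 0.005277. It was lost without NCD 1 or 3, Bacon 2, 3, 4 or 5, or HFD 2 or 3, with no filter (0.003525) and with DESeq2 size factors (0.001071). Irs2 in Bacon was lost without Bacon 3 (0.32, adjusted p = 0.002568). In a fit of the compared group only, Irs2 (adjusted p = 0.001587) and Lepr (0.00271) did not pass in Bacon. In HFD pools, where 42.7% of genes passed, Igf1r (0.82) and Adipor1 (0.63) were higher and Lepr (-1.61) and Npy1r (-1.30) lower. Insr at -0.32 (adjusted p = 0.001482) and Irs2 at 0.30 (adjusted p = 0.002066) did not pass in HFD, but without No Odour 4 both did (-0.32, adjusted p = 5.756e-05, and 0.30, adjusted p = 6.825e-05). Npy, at -1.02 without odour, measured 0.08 in NCD (adjusted p = 0.7319), 0.13 in Bacon (0.598) and 0.55 in HFD (0.01885).

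**Figure D2:**
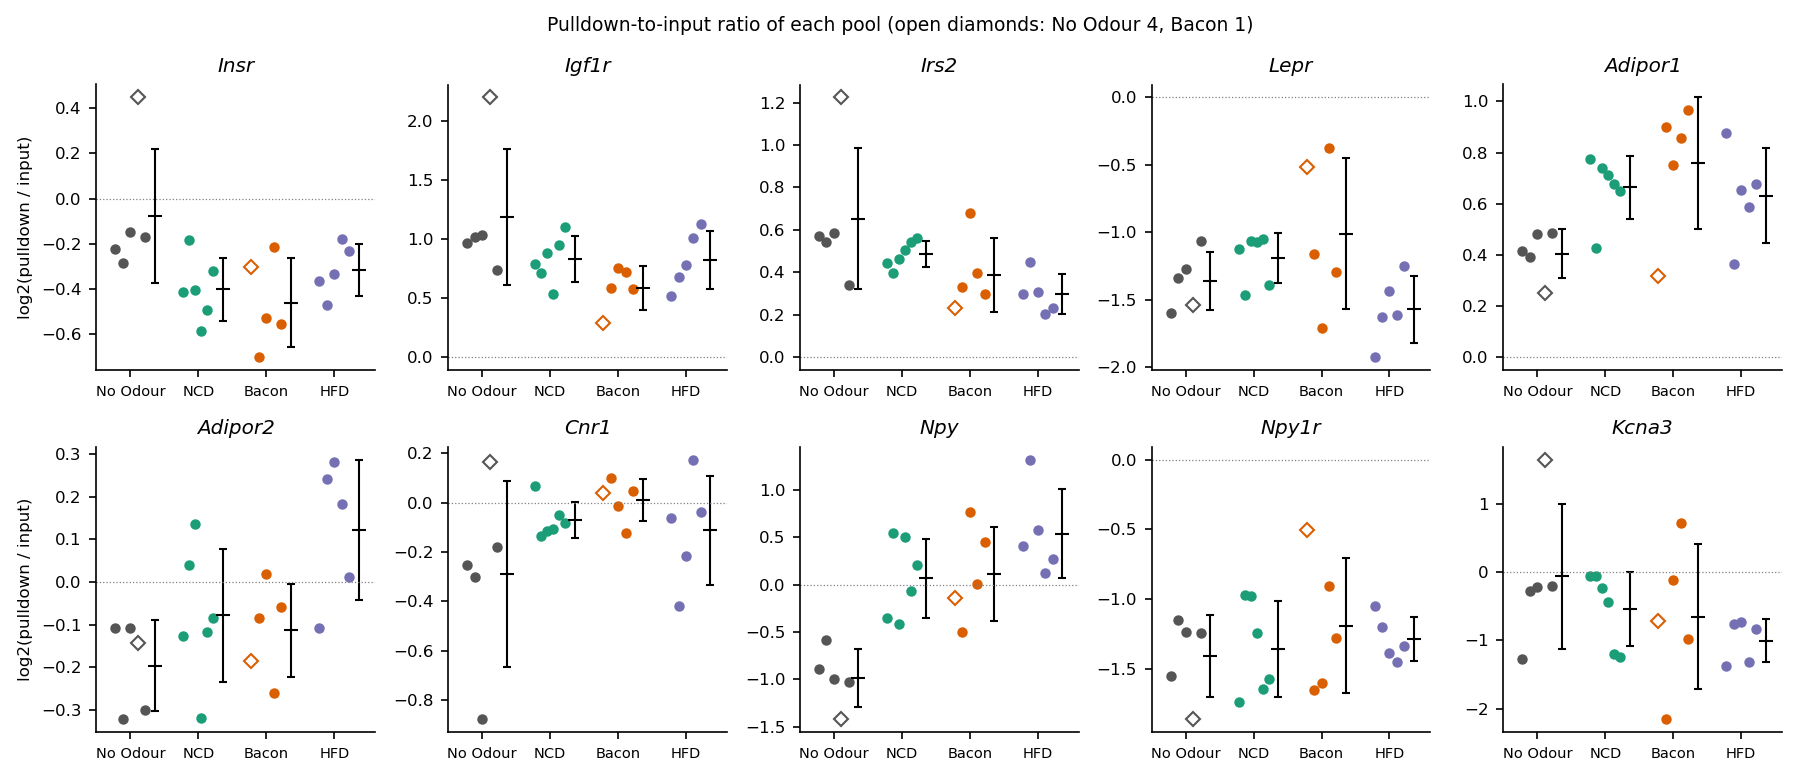
Log2 ratio of pulldown to input in each pool, 1 panel per gene with its own axis, by odour group, with group means ± SD beside the points and open diamonds for No Odour 4 and Bacon 1. All 5 No Odour pools of Npy lie between -1.42 and -0.58, below all 16 odour pools, and Lepr and Npy1r lie below 0 in every pool.

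The second comparison asks whether smelling a food changed the ratio of pulldown to input, the readout of S6 phosphorylation that allows for the level in the tissue. Npy was the only 1 of the 10 members to pass when the 16 odour pools were set against the 5 No Odour pools, where 5.47% of all genes passed. Its ratio rose by 1.27 on the log2 scale (SE 0.24, 95% interval 0.77 to 1.77, adjusted p = 0.0004812). The members' median change was 0.13, against -0.01 over all genes.

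The log2 ratios of Npy were -0.89, -0.58, -0.999, -1.42 and -1.03 in No Odour pools. They were -0.14, -0.50, 0.76, 0.01 and 0.45 in Bacon pools and 0.41, 1.32, 0.57, 0.12 and 0.27 in HFD pools. In the 6 NCD pools the lowest was -0.42, the median 0.07 and the highest 0.55. All 16 odour pools lay above all 5 No Odour pools. By single odour the change was 1.09 for NCD (adjusted p = 0.01325), 1.15 for Bacon (0.00673) and 1.56 for HFD (0.001051), and none of these passed. The HFD change passed without Bacon 1, 2 or 3 (adjusted p from 0.0007035 to 0.0009862).

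The pulldown and input levels of Npy were also compared on their own. In pulldowns Npy measured 1.12, 1.28, 1.06, 0.60 and 0.655 CPM without odour and 2.16, 2.24, 1.80, 1.77 and 2.44 CPM in HFD pools, so the 5 HFD pulldowns lay above the 5 without odour. In a fit of the pulldown libraries alone this rise of 1.16 on the log2 scale passed (SE 0.23, adjusted p = 0.0008354), where 4.63% of genes did. The same fit gave 0.76 for any odour (adjusted p = 0.006365), 0.61 for NCD (0.06263) and 0.49 for Bacon (0.1692), which did not pass, and 2 of 5 Bacon pulldowns lay above all 5 without odour. In inputs Npy measured 2.12, 1.95, 2.19, 1.71 and 1.41 CPM without odour and 1.09, 1.21, 0.886, 1.27 and 1.36 CPM in Bacon pools. All 5 Bacon inputs lay below the 5 without odour, but the difference of -0.69 did not pass (adjusted p = 0.006727). With any odour the Npy input changed by -0.51 (adjusted p = 0.01122), which did not pass either. A fall of input raises the ratio by itself. The Npy ratio change with any odour thus joins a higher pulldown level and a lower input level, neither of which passed alone.

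Npy was a scarce transcript, with 16 to 85 counts in a pulldown and 29 to 71 in an input. Its call for any odour was kept in 17 of 21 fits that left out 1 pool, with changes from 1.17 to 1.39, and was lost without No Odour 1, 3, 4 or 6. Without No Odour 4 and Bacon 1 together the change was 1.19 (adjusted p = 0.001602).

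Some markers of ensheathing and other glial cells were also higher in HFD pulldowns. Fabp7, a fatty acid binding protein of olfactory ensheathing glia, changed its ratio by 0.71 with any odour (adjusted p = 1.52e-05) and by 1.05 with HFD (adjusted p = 1.535e-06). In all, 2 of the 6 glial markers passed with any odour and 4 did not. The summed 6 markers in pulldowns measured 100 ± 7.84 CPM without odour (SD, n = 5, range 91.6 to 109) and 138 ± 6.98 CPM in HFD (n = 5, range 129 to 146). They measured 109 ± 3.49 CPM in NCD (n = 6) and 98.7 ± 12.6 CPM in Bacon (n = 5), both of which overlapped the pulldowns without odour. S100b of this list averaged 18.6 CPM in pulldowns without odour and 13.6 CPM in HFD. In inputs the summed markers averaged 193 CPM without odour and 180 CPM in HFD, and none of the 6 was at 0.

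Other cell types moved in the same pulldowns. The summed 5 microvillous cell markers ranged from 73.5 to 89.3 CPM without odour, from 95.5 to 117 CPM in NCD and from 118 to 132 CPM in HFD, which did not overlap the first, and from 81.2 to 108 CPM in Bacon. The summed 5 macrophage markers ranged from 103 to 149 CPM without odour and were lower in every odour pool, at 64.4 to 86.4 CPM in NCD, 51.0 to 83.4 CPM in Bacon and 72.5 to 77.4 CPM in HFD. The summed 5 neuronal progenitor markers ranged from 148 to 154 CPM without odour and were lower in every odour pool. They ranged from 121 to 137 CPM in NCD, 112 to 130 CPM in Bacon and 127 to 141 CPM in HFD. The summed 5 olfactory bulb neuron markers ranged from 143 to 170 CPM without odour. They ranged from 176 to 200 CPM in NCD, 176 to 189 CPM in HFD and 151 to 220 CPM in Bacon. Mature sensory neuron markers, summed over 8, ranged from 15487 to 19290 CPM without odour and from 20598 to 23210 CPM in NCD. In Bacon they ranged from 17540 to 23918 CPM and in HFD from 18608 to 21560 CPM. Immature sensory neuron markers, summed over 5, ranged from 1063 to 1182 CPM without odour and reached at most 1030 CPM in odour pools. Gland and fibroblast sums averaged 5481 and 1655 CPM without odour and less in each odour group. The part of glial cells and of these other cells in the Npy result was not tested.

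**Figure D3:**
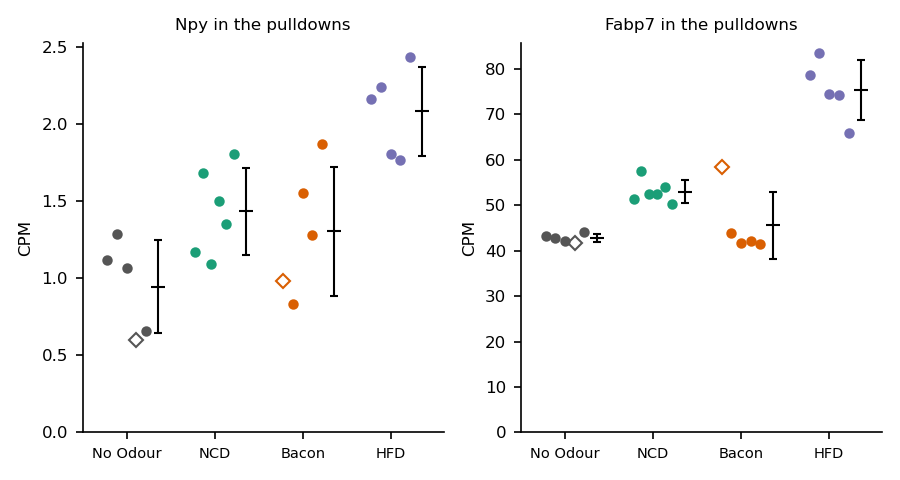
Level in CPM of Npy and Fabp7 in the pulldown libraries, 1 point per pool by odour group, with means ± SD and open diamonds for No Odour 4 and Bacon 1. The 5 HFD pools lie above the 5 No Odour pools in each panel, with Npy at 1.77 to 2.44 CPM and Fabp7 at 65.9 to 83.6 CPM.

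The ratios of the other 9 members did not pass for any odour. Adipor1 changed by 0.28 (adjusted p = 0.02034), and 13 of its 16 odour pools lay above all No Odour pools. With Bacon, where 3.78% of genes passed, Adipor1 changed by 0.35 (adjusted p = 0.01977). Without Bacon 1 that change was 0.46 and passed (adjusted p = 0.0006859). Adipor1 pulldowns measured 380, 570, 592, 534 and 597 CPM in Bacon pools, so pool 1 alone lay below the 398 to 470 CPM of the No Odour pulldowns. In Bacon 1 the summed basal markers reached 38.6 CPM, the highest of the 21 pulldowns, and Npy1r and Lepr were at 5.21 and 2.52 CPM, their highest pulldown values.

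Insr changed by -0.31 (adjusted p = 0.01544), Irs2 by -0.26 (0.04158) and Igf1r by -0.43 (0.05045). Without No Odour 4 these changes were -0.18, -0.11 and -0.18. Inputs of the same 3 members changed with any odour by 0.33 (adjusted p = 0.0009317), 0.42 (0.0002718) and 0.40 (0.01142), and a rise of input lowers the ratio by itself. Cnr1 changed by 0.23 (0.1273), Lepr by 0.11 (0.7204), Npy1r by 0.14 (0.6085) and Kcna3 by -0.60 (0.3559). Adipor2 changed by 0.32 with HFD (adjusted p = 0.02111). For single odours 0.524% of genes passed with NCD and 1.22% with HFD, and 0 members passed by edgeR with either.

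**Figure D4:**
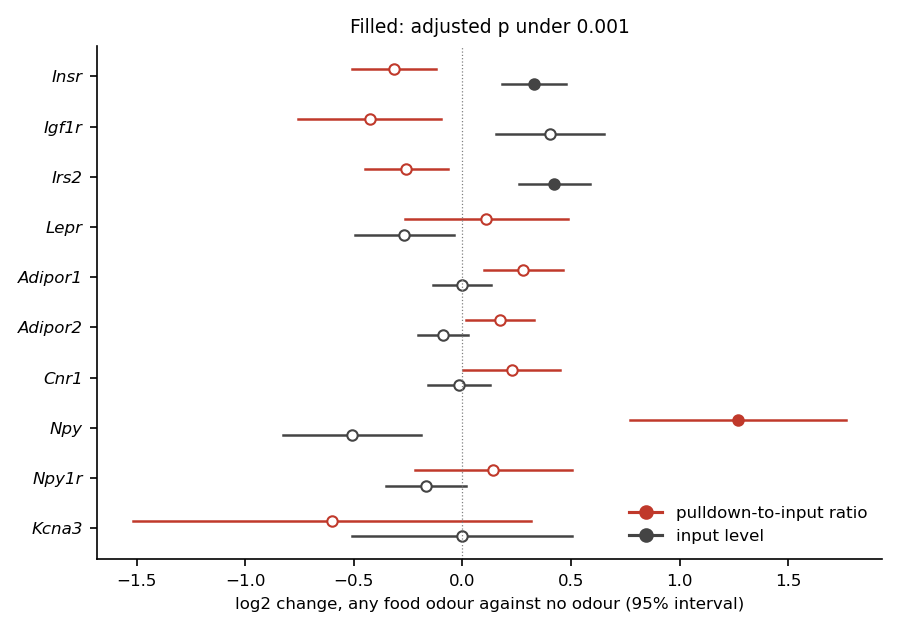
Log2 change of each gene with any food odour against no odour, for the pulldown to input ratio (red) and the input level (grey), with 95% intervals, filled where the adjusted p was below 0.001. The Npy ratio at 1.27 lies farthest from 0, and the filled input points are Insr (0.33) and Irs2 (0.42).

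The third comparison took the input libraries alone, that is, the level in the whole tissue. Irs2 and Insr rose with Bacon, and with any odour Irs2 rose too, while the rise of Insr was not firm. With Bacon against No Odour, 13.1% of genes passed and so did these 2 members, Irs2 by 0.52 (SE 0.10, adjusted p = 0.0001944) and Insr by 0.47 (SE 0.09, adjusted p = 0.0002238). With any odour 11.5% of genes passed and again these 2 members, Irs2 by 0.42 (SE 0.08, adjusted p = 0.0002718) and Insr by 0.33 (SE 0.07, adjusted p = 0.0009317). The members' median input change was -0.01, the same as over all genes.

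Some cell type markers moved in the same Bacon inputs without overlap. The summed 5 fibroblast markers ranged from 2123 to 2944 CPM without odour and from 1615 to 1858 CPM in Bacon. The summed 6 ensheathing and glial cell markers ranged from 172 to 228 CPM without odour and from 153 to 164 CPM in Bacon. Of these 6, Fabp7 ranged from 97.6 to 141 and from 72.6 to 77.8 CPM. Sox10 went the other way, from 32.2 to 34.8 CPM without odour and from 42.1 to 48.9 CPM in Bacon. Frzb averaged 2.46 CPM without odour and 2.54 CPM in Bacon. The summed 5 olfactory bulb neuron markers ranged from 73.1 to 106 CPM without odour and from 114 to 125 CPM in Bacon. Omp averaged 5165 ± 340 CPM in Bacon inputs (SD, n = 5) and 7067 ± 982 CPM without odour (n = 5). The summed 8 mature sensory neuron markers, Omp among them, overlapped, at 14977 to 16738 CPM in Bacon and 14770 to 18537 CPM without odour. The part of these cells in the rise of Irs2 and Insr was not tested.

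Irs2 inputs measured 40.0, 42.2, 38.0, 45.2 and 44.7 CPM in Bacon pools and 40.4, 34.2, 38.9, 41.8 and 43.0 CPM in HFD pools. In NCD pools the lowest was 34.2, the median 36.1 and the highest 37.7 CPM. All 16 odour inputs lay above the highest No Odour input, which was 33.4 CPM. The change with any odour passed in 20 of 21 fits that left out 1 pool, with changes from 0.30 to 0.47, and was lost without No Odour 2 (0.41, adjusted p = 0.00151). HFD alone gave 0.44 (adjusted p = 0.00341) and NCD alone 0.30 (0.02048), where 0.935% and 0.968% of genes passed.

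Insr inputs measured 108, 105, 105, 105 and 101 CPM in Bacon pools, all above the highest No Odour input of 92.6 CPM. HFD pools measured 96.4, 93.2, 86.3, 87.1 and 90.4 CPM, which overlaps the No Odour range. NCD alone gave an Insr change of 0.26 (adjusted p = 0.02455) and HFD alone 0.26 (0.03795), and neither passed. The change of Insr with any odour passed in only 2 of 21 fits that left out 1 pool, with changes from 0.22 to 0.41. The change with Bacon passed in 20 of 21 and was lost without Bacon 1 (0.44, adjusted p = 0.001181).

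Igf1r inputs measured 48.7, 47.2, 45.1, 50.9 and 49.3 CPM in Bacon pools, all above the No Odour inputs. The change of 0.61 did not pass (adjusted p = 0.002061). Without No Odour 4, whose Igf1r input was the lowest of all, it was 0.44 and passed (adjusted p = 0.0001156), and without No Odour 6 it was 0.73 and passed (0.00033). Igf1r has 16791 bases of exon, and in No Odour 4 its input lay 1.07 below its group on the log2 scale. Irs2 lay 0.68 and Insr 0.58 below.

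The input levels of Lepr, Npy1r, Cnr1, Adipor1, Adipor2 and Kcna3 overlapped between No Odour and each odour. Lepr averaged 4.51 ± 0.576 CPM without odour (SD, n = 5), 3.78 ± 0.498 in NCD (n = 6), 3.58 ± 0.83 in Bacon (n = 5) and 3.87 ± 0.426 in HFD (n = 5), and its change with any odour was -0.27 (adjusted p = 0.0602). Npy1r averaged 7.08 ± 1.01, 6.09 ± 0.75, 6.84 ± 0.643 and 5.99 ± 0.695 CPM in the same order. Cnr1 averaged 17.7 ± 2.27, 17.6 ± 0.988, 18.1 ± 1.37 and 17 ± 1.93 CPM, and Adipor1 324 ± 40.0, 332 ± 13.1, 313 ± 22.4 and 324 ± 38.6 CPM. None of these 4 passed with any odour. Adipor2 averaged 43.4 ± 2.47, 41.6 ± 3.03, 42.8 ± 3.00 and 38.2 ± 3.34 CPM, and Kcna3 0.630 ± 0.362, 0.558 ± 0.176, 0.674 ± 0.184 and 0.696 ± 0.0708 CPM, and neither passed.

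In pulldowns the HFD libraries held the lowest group mean of Lepr, 1.27 ± 0.286 CPM against 1.71 ± 0.141 without odour, with ranges that overlapped. The 5 HFD pulldowns of Kcna3, at 0.258, 0.342, 0.367, 0.226 and 0.406 CPM, lay below the 5 without odour, at 0.430, 0.487, 0.551, 0.487 and 0.561 CPM. These are 6 to 18 counts per library, and the Kcna3 ratio in HFD did not pass. All 6 NCD pulldowns of Irs2 (48.6 to 53.0 CPM) lay above the 5 without odour (42.4 to 48.2 CPM).

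**Figure D5:**
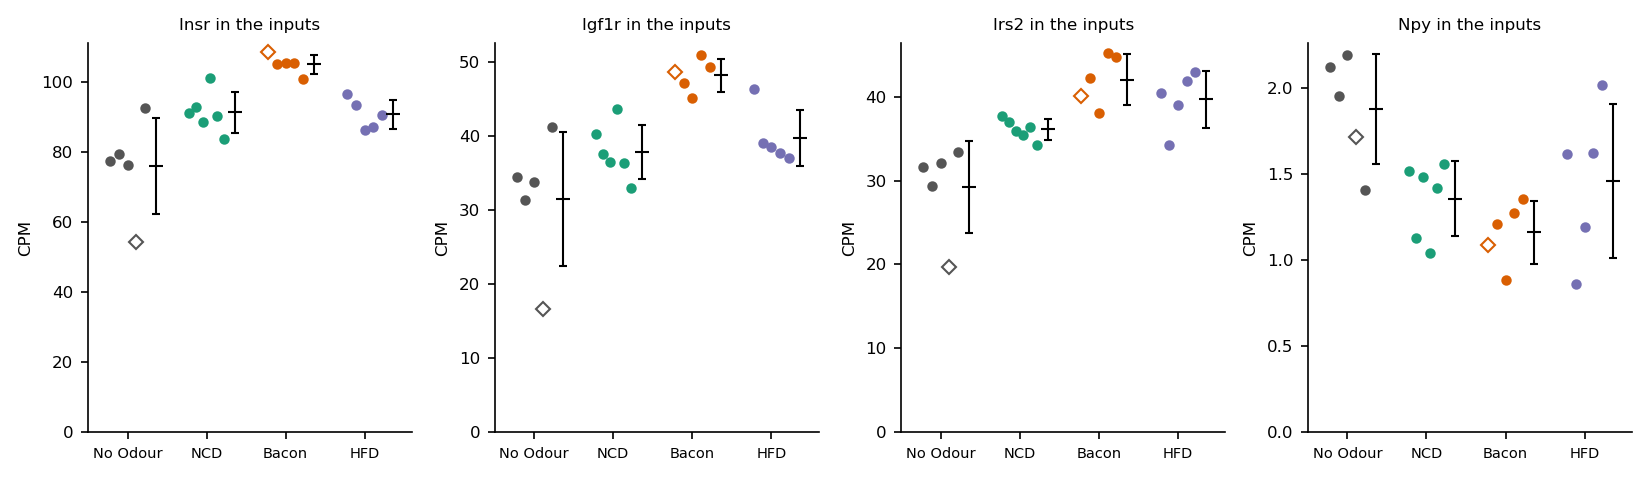
Input level in CPM of Insr, Igf1r, Irs2 and Npy by odour group, 1 point per pool, with means ± SD and open diamonds for No Odour 4 and Bacon 1. All 16 odour pools of Irs2 (34.2 to 45.2 CPM) lie above the 5 No Odour pools (19.7 to 33.4 CPM).

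At the looser threshold of adjusted p below 0.05, the share of all genes past it was also larger. For the ratio 4 members and 25.8% of genes passed with any odour, 4 and 22.5% with Bacon, 3 and 15.7% with HFD and 1 and 13.1% with NCD. For input 4 members and 36.0% of genes passed with any odour, 4 and 38.5% with Bacon, 2 and 20.7% with HFD and 2 and 22.5% with NCD. For pulldown against input in HFD pools 8 members and 64.6% of genes passed.

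Between the odours, no member passed for the ratio or for input by edgeR. For the ratio 0.00945% of genes passed between Bacon and NCD, 0.0236% between HFD and NCD and 0.0378% between HFD and Bacon. For input the shares were 0.104%, 0.0567% and 0.0803%. The Npy ratio in HFD lay 0.47 above NCD (95% interval -0.09 to 1.03) and 0.41 above Bacon (-0.18 to 1.01), so differences of that size are not excluded. The Insr input in HFD differed by -0.21 from Bacon (-0.39 to -0.03, adjusted p = 0.1912). At an unadjusted p below 0.05 the Adipor2 ratio was higher in HFD than in Bacon by 0.24 (0.05 to 0.43, adjusted p = 0.518), and the Lepr ratio differed by -0.60 (adjusted p = 0.5029).

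The other genes of these pathways were listed by name, and 19.8% of all genes tested were higher and 16.0% lower in the pulldown without odour. In No Odour pools 28 of 31 insulin and IGF signalling genes could be tested, of which 4 were higher in the pulldown and 11 lower, with a median log2 ratio of -0.17. Akt1, the kinase downstream of phosphoinositide 3-kinase, was higher by 0.85, and Igfbp4, an IGF binding protein, Foxo1, a transcription factor that Akt inactivates, and Grb10, an adaptor that restrains the insulin receptor, were lower at -1.09, -0.70 and -0.77. Of the leptin and adiponectin list 15 of 16 were tested, 4 higher and 5 lower, with Stk11, the kinase that activates AMP-activated kinase, at 1.52 and Appl1, the adaptor of adiponectin receptors, at -0.50. Of the endocannabinoid list 12 of 13 were tested, 3 higher and 3 lower. Dagla, which makes 2-arachidonoylglycerol, was at 0.72, and Mgll, which breaks it down, at -1.16.

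Of the Shaker channels and their partners 10 of 12 were tested, 4 higher and 0 lower in the pulldown. Kcna6 was at 1.15, Dlg4, a scaffold protein, at 0.97, Kcna5 at 0.69 and Kcnab2, a channel subunit, at 0.61. Of the neuropeptide Y family only Dpp4, a peptidase, of 7 genes was tested, and it was lower at -1.08. Npy2r had 43 counts over 21 inputs, and Npy5r and Pyy had 0. Of 35 other appetite genes 16 were tested, 2 higher and 2 lower, with Pomc, the precursor of melanocortins, at 1.26 and Calcrl at -0.99. The genes of the hormones insulin and leptin were close to absent from these counts, with 3 counts of Lep over 21 inputs, 0 of Ins1 and 1 of Ins2. Igf2 and Igf1, on the insulin and IGF list, averaged 202 and 15.4 CPM in inputs.

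With any odour 3.10% of all genes had a higher ratio and 2.37% a lower one, and 5.05% a higher input and 6.40% a lower one. The ratio of 3 genes on the insulin and IGF list was lower with any odour, Irs1 at -0.49, Pik3cb at -0.51 and Shc1 at -0.37, and 0 higher. The leptin and adiponectin list had Leprot higher at 0.48, and the other 4 lists had 0 in either direction. In input the insulin and IGF list had Irs1 (0.41), Pik3ca (0.36) and Pdpk1 (0.26) higher and Igfbp4 (-0.28) and Igfbp6 (-0.77) lower. Leprotl1 (-0.26) and Socs1 (-1.50) were lower on the leptin list, and Napepld, which makes anandamide from its precursors, was higher at 0.32. The ratio of Irs1, the adaptor related to Irs2, fell while its input rose, and a rise of input lowers the ratio by itself.

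The genes most like each member across the 21 inputs were found by Pearson correlation of log2 CPM, after removal of the odour group means, among 16303 genes with a mean of at least 1 CPM. Points share pools and library depth, and No Odour 4 weighs on these values. Igf1r was nearest Adgrl1 (r = 0.98), and without No Odour 4 its correlation with Adgrl1 was 0.91 and with Trio 0.91. Insr was nearest Rnf213 (0.97), with Clec16a (0.97) also among its 3 nearest, and without that pool its correlation with Rnf213 was 0.89. Adipor1 was nearest Orc2 (0.97) and without that pool nearest Twsg1 (0.95) and Orc2 (0.95). Other members had nearest genes at lower correlations, with Adipor2 nearest Camkk2 (0.84), Cnr1 nearest Mysm1 (0.84), Lepr nearest Gypc (0.75) and Npy1r nearest Xpnpep1 (0.75). Npy was nearest Klc2 (0.90), but 0 of its 3 nearest genes were among the 3 nearest without No Odour 4, and the same held for Irs2. Between members, Insr and Igf1r had r = 0.94 over 21 inputs and 0.80 over 20 without No Odour 4. Insr and Irs2 had 0.73 with it and 0.05 without, so their likeness rested on that pool.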

How the data were processed

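Pulldown and input RNA of 21 pools was amplified with an Ovation RNA-Seq kit and made into Nextera XT libraries, per the study's methods. The deposited values are estimated counts per gene, made by the authors with Salmon in an nf-core pipeline on GRCm38, with DESeq2 1.26 also named in the submitters' notes. Of these values 30.9% were not whole, and they were rounded. Libraries were grouped by the labels and 0 columns went unused. Genes were filtered with filterByExpr (minimum count 10), which left 21168, scaled by TMM and tested with edgeR 4.0.16 quasi-likelihood fits in R 4.3.3 (limma 3.58.1). Ratios were tested over all 42 libraries with a term for pool, and input or pulldown levels over 21 libraries. The threshold was an adjusted p below 0.001. Log2 values per library used a prior count of 2. Marker genes, pathway lists and the 10 members were chosen with earlier results of these data known. Genes named were all 10 members, from each list up to 4 with the smallest p for pulldown against input and up to 2 for any odour, any list gene counted in a sentence, and the 3 nearest genes by correlation, some of which are not reported here. DESeq2 1.42.0, other filters and scalings, leaving out pools, and a replicate block were alternatives. Pulldown and input of 1 pool come from the same animals, and their deviations from group means had a median correlation of 0.014 (from -0.079 to 0.211). Inputs with 1 number in different odours had 0.020 over 27 pairs, against -0.002 over 138 pairs with different numbers. On simulated counts the ratio fit for NCD recovered 62 of 100 genes changed 2-fold and 91 of 100 changed 4-fold, and the input fit for Bacon 84 and 99. Those counts were drawn from No Odour means with the same spread for every gene, without pool effects or pools that stand apart. Recovery on the real counts was therefore not measured. Gene positions are on GRCm38. The share of 31-base words that a member shares with other genes was at most 4.17% (Npy1r). Intervals are 95% and follow the t distribution with the fit's total degrees of freedom. 556 genes without a symbol were kept by identifier, and Galr3 is not analysed here.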

Additional observations from a re-analysis of the deposited data

Results flagged for a closer look

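In 13 of 120 groups of 5 or 6 pools examined, 1 pool lay far from the others by Dixon's test, and chance gives about 1 in 20 such groups. No Odour 4 accounts for 5 of them. Its log2 ratio was the highest for Insr (0.45), Igf1r (2.20) and Irs2 (1.22), its log2 input level was the lowest for Irs2 (4.31, 19.7 CPM) and its log2 input level the highest for Adipor1 (8.63, 395 CPM).

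The NCD 2 pool had the highest log2 pulldown level of Insr (6.35, 81.7 CPM) and the lowest log2 ratio of Adipor1 (0.43). HFD 1 had the highest log2 input level of Igf1r (5.54, 46.3 CPM) and the lowest log2 pulldown level of Adipor2 (5.27, 38.6 CPM). Bacon 3 had the highest log2 input level of Adipor1 (8.46, 352 CPM) and Bacon 1 its lowest log2 pulldown level (8.57, 380 CPM). No Odour 1 had the lowest log2 pulldown level of Lepr (0.61, 1.46 CPM), and NCD 6 the lowest of Kcna3 (-2.58, 0.102 CPM).

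The pulldown to input ratio of Npy differed between odour and no odour by the test of the difference itself (edgeR quasi-likelihood, 1.27 on the log2 scale, adjusted p = 0.0004812 over all genes tested).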

How the results depend on the processing

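Counts of members past the threshold are given here against the count in the report. No value past the threshold, in the report or in an alternative, changed direction. Values that did not pass did, such as the Kcna3 ratio of pulldown to input without odour, from -0.18 to 0.16 with 1 pool left out, and the Npy1r ratio with any odour, from 0.14 to -0.03 without No Odour 4 and Bacon 1. With adjusted p below 0.05, input counts rose to 4 for any odour (from 2), 4 for Bacon (from 2), 2 for HFD and 2 for NCD (each from 0), ratio counts rose to 4 for any odour (from 1), 4 for Bacon, 3 for HFD and 1 for NCD (each from 0), and the pulldown against input count in HFD to 8 (from 4). With the replicate block the count was 0 for any odour in input and 0 for the ratio, where Npy measured 1.29 (adjusted p = 0.001582). Replicate numbers name pools and no label ties them to a shared day, and the block changed no other count by over 1.5 times. Without No Odour 4 and Bacon 1 together (chosen after seeing the data) the counts were 1 for any odour in input, 0 for any odour in the ratio and 1 for Bacon in the ratio. Leaving out the genes of ribosomal RNA type gave 1 for any odour in input and 1 for HFD in the ratio. For HFD in the ratio, DESeq2, no filter, no replicate block (no pool term) and the pulldown libraries alone each gave 1, which was Npy, and pulldown libraries alone gave 0 for any odour. DESeq2 gave 1 for HFD in input, Irs2. Fits of the compared groups only gave 0 for Bacon in input, 1 for Bacon against NCD in input (Igf1r, 0.35, adjusted p = 0.0002216) and 3 for pulldown against input without odour. The cause of these changes was not tested. Leaving out each pool in turn gave 0 to 2 for any odour and 1 to 3 for Bacon in input, 0 to 1 for any odour, Bacon and HFD in the ratio, and 4 to 6 (Bacon), 4 to 6 (HFD), 6 to 6 (NCD) and 5 to 6 (No Odour) for pulldown against input. Npy and Kcna3 had the fewest counts, as few as 16 and 3 in a pulldown, which limits their precision.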
